A study of Lactuca sativa with 12 samples.

Results

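Of the 23933 lettuce genes with deposited values, 85 were at 7 d far below their level at 0 h, had less than a 2-fold mean difference from 0 h at 4 h, and stood higher at 24 h than at 7 d. They were chosen on their mean level at each time-point in CPM, the reads of a gene scaled to a library total of 1000000. The ratios r4, r24 and r7 are the means at 4 h, 24 h and 7 d divided by the mean at 0 h, after adding 1 CPM to each. A gene was taken if r7 was at most 0.33, r24 was at least 1.5 times r7, and r4 was over 0.5 and under an upper limit that lay between the r4 values of 1.73 and 1.81 of the nearest genes on its 2 sides. The 100 genes with the highest mean at 0 h were left out, as was 1 gene by name. The contrasts of each cold time-point with 0 h, and of 7 d with 24 h, are what chose these genes. Their values and counts of calls in these contrasts are therefore a description of the choice and test nothing.

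The plants were Lactuca sativa cv. 'Salinas', 18 days old when the cold treatment began, and RNA was taken from the whole above-ground tissue. Plants of the 0 h group were kept at 20 °C with 350 to 400 µmol m−2 s−1 of light, and the 4 h, 24 h and 7 d groups were moved to 4 °C with about 100 µmol m−2 s−1. The day length was 16 h during growth at 20 °C, and the paper does not state it separately for the cold treatment. Each of the 4 time-points has 3 libraries, which the study calls biological replicates. Because temperature and light changed at the same moment, and the plants of 7 d were also older, effects of cold, dimmer light and age cannot be told apart. The study does not give the time of day at which plants were taken, and its part in the values, those of 4 h included, was not tested.

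In a chilled plant, cold-regulated (COR) genes are switched on by transcription factors such as the CBF/DREB1 proteins while other genes are turned down. Genes turned down commonly include those for photosynthesis, growth and water movement. Members of 1 gene family can respond to cold in different ways. The genes described here are a group by their time course and do not form a pathway.

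Library depth was 18609189 to 25952306 reads, so that 1 read was worth 0.0385 to 0.0537 CPM. Replicates of a time-point correlated with r of 0.99 to 0.995 over the tested genes, except that replicate 3 of 0 h reached only 0.977 and 0.979 with the other libraries of 0 h. Without that library the rule finds 85 genes, of which 75 are among the 85 described. The 13 genes of photosynthesis taken as markers of leaf mesophyll held 51373 to 53170 CPM in the libraries of 0 h. None of them was at the floor of 3 reads in all libraries of a time-point. They come from the genes that the study called in these libraries, so their presence does not test the tissue label.

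The group was lower by a small margin at 4 h, by about 2-fold at 24 h and by more than 4-fold at 7 d. The median of r4 was 0.909, that of r24 was 0.497 and that of r7 was 0.224. Over the 22306 genes tested, the medians were 1.01, 1.02 and 1.1. At 7 d, r7 ranged over the 85 genes between 0.0391 and 0.33. The mean CPM at 7 d was below that at 0 h by 68.4% to 100%, with a median of 83.6%. It was under 10% of the 0 h mean in 31 genes and under 20% in 54. In bulk tissue, fewer cells of a type and less RNA per cell cannot be told apart in these values.

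Of the whole change on the log2 scale between 0 h and 7 d, the median gene had completed 42.6% by 24 h, with quartiles of 33.1% and 59.1%. In 29 genes the larger share of the change came before 24 h, and in 56 genes it came after 24 h. The summed CPM of the 85 genes was 6727, 6963 and 8158 at 0 h, 6268, 6253 and 6073 after 4 h, 3216, 3552 and 4093 after 24 h, and 1499, 1710 and 1667 after 7 d. No library of 24 h overlapped with those of 0 h or 7 d in this sum. The sum is dominated by a few abundant genes, since 4 of the 85 made up 45.3% of it in replicate 1 of 0 h. As a share of the library, the group took 0.150% to 0.171% at 7 d, against 0.673% to 0.816% at 0 h.

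**Figure D1:**
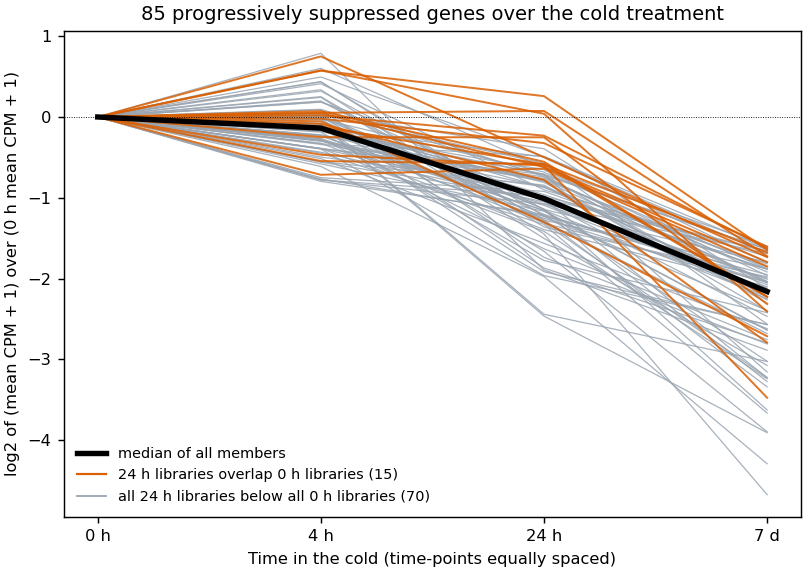
Change of each of the 85 genes over time. The x axis gives the time in the cold with the 4 time-points equally spaced, and the y axis the log2 of (mean CPM + 1) over (0 h mean CPM + 1), each mean over 3 libraries. Each thin line is 1 gene, in orange for the 15 genes whose libraries of 24 h overlap with those of 0 h and in grey for the other 70, and the black line is the median of the 85 genes, which is −0.14 at 4 h, −1 at 24 h and −2.16 at 7 d.

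Each gene was fitted with limma on log2(CPM + 1) across all 12 libraries, and a gene was called at a 2-fold change and an adjusted p-value (Benjamini-Hochberg) of at most 0.01. At 7 d, 84 of the 85 genes were called lower than at 0 h, where 3.41% of all tested genes were. At 24 h, 38 were called lower than at 0 h, with 3.55% of all tested genes. Between the cold time-points, 28 were called lower at 24 h than at 4 h, against a background of 3.93%, and 54 lower at 7 d than at 24 h, against 2.52%. None was called higher, which 5.15% of all tested genes were at 4 h, 5.99% at 24 h and 6.81% at 7 d against 0 h, 2.50% at 24 h against 4 h and 1.17% at 7 d against 24 h. Since these contrasts chose the genes, nothing is read from the excess over the background.

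At 4 h, 0 of the 85 were called lower by limma, by edgeR or by DESeq2, where limma called 0.592% of all tested genes. Since the rule asks for an r4 over 0.5 and a call asks for a 2-fold change, this count of 0 was all but set by the choice of genes. An unadjusted limma p-value below 0.05 with a lower level was found in 16 of the 85. The share of all tested genes with such a p-value was not determined, so nothing is read from the 16. The median log2 change of the 85 genes was −0.14 at 4 h, −1 at 24 h and −2.16 at 7 d, on the log2(CPM + 1) scale, and that of all tested genes was 0.03, 0.04 and 0.15. Scaling by TMM in place of the library size moved the median of all genes at 7 d to 0.02 and that of the 85 to −2.32. The gene with the smallest change at 7 d had −1.56 by library size and −1.70 by TMM, so that all 85 lay lower under both.

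By library, all 3 libraries of 7 d lay below all 3 of 0 h in each of the 85 genes, as they did in 18.4% of all tested genes. All libraries of 24 h lay below those of 0 h in 70 genes (21.0% of all tested genes) and overlapped with them in 15. All libraries of 7 d lay below those of 24 h in 81 genes (18.3%). The 4 genes in which they overlapped were the aquaporin PIP2-4, PIN-LIKES 5, Ls6g91941.1 and Ls6g91761.1, the last of which was named for this overlap after its values were seen. At 4 h, 67 genes overlapped with 0 h, 13 lay wholly below (13.2%) and 5 wholly above (22.6%). All libraries of 24 h lay below those of 4 h in 65 genes (27.2%).

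Of the 23933 genes, 199 had an r7 of at most 0.33, and 96 of these had an r24 less than 1.5 times r7, so that their level at 24 h was less than 1.5-fold above that at 7 d. The limits on r4 removed 13 more genes and the limit on abundance 5, which left 85. The values near the limits run on without a gap. The r7 values were 0.32968 for Ls4g36401.1, 0.329 for Ls5g107420.3 and 0.324 for Ls3g30521.1 just inside, and 0.330435 for Ls6g7721.2, 0.333 for Ls8g112941.1 and 0.334 for Ls5g71000.1 just outside. Likewise the ratio of r24 to r7 was 1.50012 for Ls6g91761.1 just inside and 1.49942 for Ls8g122761.3 just outside. Of the 85 genes, 15 had an r7 over 0.30 and 10 passed the limit on r24 over r7 by less than 0.1.

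**Figure D2:**
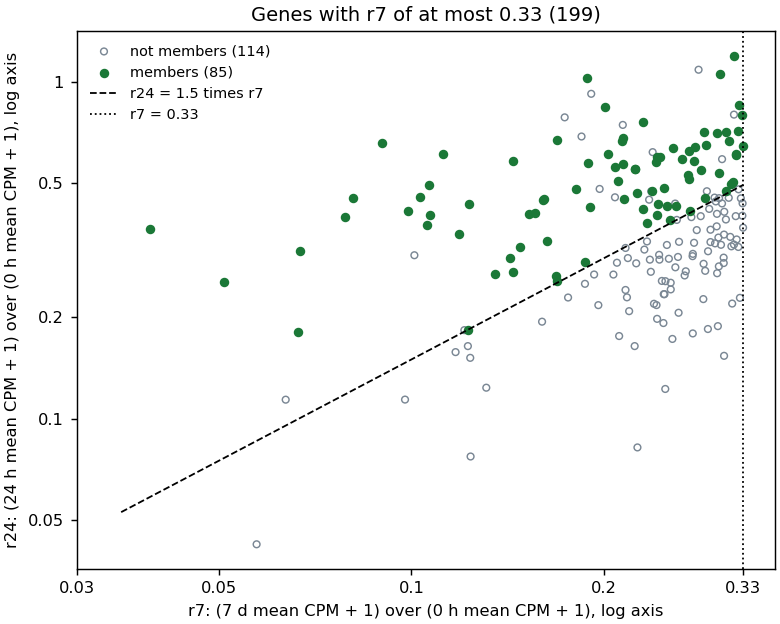
The 199 genes with r7 of at most 0.33, with r7 on the x axis and r24 on the y axis, both as ratios of (mean CPM + 1) to the 0 h mean on log axes. Filled green points are the 85 genes described, open grey points the 114 that another limit removed, the dashed line marks r24 at 1.5 times r7 and the dotted line r7 at 0.33. Points lie on both sides of the dashed line without a gap.

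Gene identities come from the study's list of cold-regulated genes, of which the genes with the digits 0 to 3 and part of 4 in their IDs were used here. It names 35 of the 85 genes and describes 32, out of 1619 genes of the data that it describes. The other 53 are known here by ID only, in the short form that the study uses, in which the digit after Ls is the linkage group. The list holds only genes that the study called on these same libraries, so counts of its families are not independent evidence of a direction. Of its described genes tested here, 15.1% were called lower and 23.3% higher at 7 d than at 0 h, by library size. The shares of described genes called under TMM scaling, or at 4 h and 24 h, were not determined. Nothing is therefore read from family counts in those settings.

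Among genes of photosynthesis, the group holds the gene for photosystem I subunit VI (Ls1g35241.1). This small subunit, PsaH, is the place where light-harvesting complexes dock on photosystem I. It had 900, 839 and 689 CPM at 0 h, 611, 648 and 592 after 4 h, 430, 483 and 517 after 24 h, and 187, 220 and 233 at 7 d. No time-point overlapped with the next, and the mean at 7 d was 213 ± 23.3 CPM against 810 ± 108 at 0 h (SD, n = 3 each). Of the 19 described genes of photosynthesis, 14 were called lower and 0 higher at 7 d by limma, with 3 lower at 24 h. Under TMM scaling 17 were called lower at 7 d. Of those outside the 85, a Rubisco small chain gene (Ls4g153980.1) had a log2 change of −0.35 ± 0.0814 (SE) at 24 h and −2.53 ± 0.0814 at 7 d (adjusted p = 6.05e-10, limma with Benjamini-Hochberg adjustment), and Rubisco activase 2 (Ls2g118741.2) had −0.43 and −2.22 (adjusted p = 1.75e-08). Both met the limits on r4, r24 and r7 and were left out of the group for their abundance at 0 h.

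The gene for a cytosolic glutamine synthetase (Ls3g63880.1), which joins ammonium to glutamate, had 113, 87.6 and 143 CPM at 0 h, 120, 96.2 and 121 after 4 h, 77.0, 71.3 and 64.9 after 24 h, and 31.8, 28.9 and 30.6 at 7 d. It was level at 4 h and lower in steps thereafter. The gene for 3-hydroxy-3-methylglutaryl-coenzyme A reductase 3 (Ls2g74261.1), of the enzyme that commits carbon to the mevalonate pathway and so to sterols and many terpenoids, had 44.1, 44.7 and 69.2 CPM at 0 h, 47.7, 37.3 and 40.0 after 4 h, 38.0, 35.4 and 38.5 after 24 h, and 16.1, 19.6 and 13.3 at 7 d. Most of its change came after 24 h, since only 29.9% of it on the log2 scale was complete by then. Dammarenediol II synthase (Ls0g13160.2), named for a ginseng enzyme that cyclises oxidosqualene on the way to triterpenes, had a mean of 1.80 ± 0.759 CPM at 7 d and 10.3 ± 0.917 at 0 h, and its r24 was 0.484.

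Water channels make up 3 of the 32 described genes, and their time courses differ. PIP2-4 (Ls2g108920.1), a channel of the plasma membrane, had 66.4, 77.1 and 123 CPM at 0 h, 157, 168 and 138 after 4 h, 11.8, 13.3 and 44.5 after 24 h, and 6.47, 15.2 and 11.8 at 7 d. Every library of 4 h was thus above every library of 0 h, its r4 of 1.73 was the highest of the 85, and replicate 3 stood apart at 24 h. NIP5-1 (Ls3g13220.1), whose Arabidopsis relative carries boric acid into roots, had 63.8, 73.4 and 75.8 CPM at 0 h, 77.7, 63.1 and 80.1 after 4 h, 71.5, 73.5 and 79.5 after 24 h, and 23.0, 19.6 and 19.9 at 7 d. Its first 3 time-points overlapped, and the lower level was seen at 7 d alone. TIP1-1 (Ls1g51360.1), a channel of the vacuolar membrane, had 23.0, 46.0 and 47.2 CPM at 0 h, 27.9, 60.3 and 27.1 after 4 h, 11.1, 19.5 and 20.4 after 24 h, and 0.855, 2.58 and 3.21 at 7 d. It spread widely between replicates, and its libraries of 7 d were still below every other library.

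Of the 15 described aquaporin genes, limma called 0 lower and 2 higher at 4 h, and 7 lower and 2 higher at 24 h. At 7 d, 11 were called lower and 1 higher by limma. Under TMM scaling 12 were called lower and 0 higher. The exception by library size was SIP1-2 (Ls2g59281.1), with a log2 change of 2.47 at 24 h and 1.08 at 7 d (adjusted p = 2.23e-06), or 0.92 at 7 d by TMM. Genes of the same description did not all share the time course. A second gene described as NIP5-1 (Ls3g13280.1) rose at 24 h, by 1.24 ± 0.150 on the log2 scale (SE, adjusted p = 3.33e-05), and had 0.34 at 7 d (adjusted p = 0.0747, not called). A second TIP1-1 gene (Ls1g64661.1) was lower at 7 d, with a log2 change of −1.39 (adjusted p = 1.05e-05). A second PIP2-4 gene (Ls2g108980.1) had a time course of the same shape as the PIP2-4 gene of the group. Its log2 changes were 1.22 at 4 h and −0.70 at 24 h, neither of them called. At 7 d it had −1.03 with an adjusted p of 0.0166, which missed the threshold, and −1.19 by TMM, which passed it. The genes called higher at 4 h, PIP2-2 (Ls2g109001.2) with 1.84 and NIP2-1 (Ls3g101560.1) with 1.07, were called lower at 7 d, with −1.24 and −1.90. Sequences were not compared here. Where genes of the same description are near-identical they can share reads, which would make their values less certain than those of single genes.

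The sugar and starch list holds 2 genes of the group, and a hexokinase-like gene outside the list is described with them. ERD6-like 16 (Ls3g26081.1), of a family of sugar transporters, had 13.5, 24.0 and 17.4 CPM at 0 h, 15.5, 16.2 and 16.2 after 4 h, 4.54, 3.95 and 5.40 after 24 h, and 2.62, 2.97 and 2.21 at 7 d, so that 73.4% of its change on the log2 scale was complete by 24 h. A soluble beta-fructofuranosidase (Ls2g128981.1), an invertase that splits sucrose into glucose and fructose, had 6.61, 8.61 and 12.9 CPM at 0 h, 8.76, 6.98 and 6.66 after 4 h, 4.18, 3.99 and 5.97 after 24 h, and 1.18, 2.00 and 0.790 at 7 d. A hexokinase-like 2 gene (Ls3g84241.1), related to the enzymes that phosphorylate glucose, had a mean of 0.857 ± 0.447 CPM at 7 d and 8.17 ± 1.39 at 0 h. Of the 19 described genes for sugar and starch, 10 were called lower and 5 higher at 7 d, under library size and under TMM alike. The other invertase genes of the list differed in direction. Those described as the same soluble isoenzyme included genes that were higher at 7 d, with log2 changes of 2.87 ± 0.148 for Ls2g125121.3 (SE, adjusted p = 4.78e-08) and 1.28 for Ls2g125041.1 (adjusted p = 2.97e-05). Ls3g3061.1, of the same description, was higher at 24 h, with 4.21 (adjusted p = 1.97e-07), and had 0.42 at 7 d (adjusted p = 0.235, not called). The acid invertase genes were lower, Ls3g2180.1 with −2.92 at 7 d (adjusted p = 2.86e-05) and already −2.73 at 24 h, and Ls3g3081.3 with −1.17 at 7 d (adjusted p = 9.72e-05) and −1.05 at 24 h. An insoluble invertase gene (CWINV3, Ls3g25201.1) had −0.55 at 7 d (adjusted p = 0.0154, not called).

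Among genes named for stress or for the cell wall, the group holds a pair described as BURP domain protein RD22. RD22 of Arabidopsis is known for its response to drying and abscisic acid. Ls1g48980.1 had 45.1, 51.2 and 90.9 CPM at 0 h, 42.2, 41.6 and 43.5 after 4 h, 37.2, 36.8 and 50.1 after 24 h, and 13.6, 12.2 and 11.8 at 7 d. Ls1g48900.1, the next gene in the table, had 16.3, 13.6 and 27.2 CPM at 0 h, 17.6, 13.1 and 17.6 after 4 h, 6.14, 5.61 and 9.43 after 24 h, and 1.28, 1.35 and 0.790 at 7 d. The first overlapped with 0 h at 24 h whereas the second did not, and reads may be shared between them. A 14 kDa proline-rich protein gene (DC2.15, Ls3g221.1), named for a carrot transcript, had 433, 462 and 718 CPM at 0 h, 482, 504 and 460 after 4 h, 250, 258 and 319 after 24 h, and 147, 152 and 137 at 7 d. Its highest value was in replicate 3 of 0 h, and its time-points from 4 h on did not overlap.

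Wound-induced protein 1 (Ls2g125861.1), named for a potato gene that responds to wounding, had the highest r24 of the group, 1.2. It had 83.8, 106 and 81.9 CPM at 0 h, 140, 128 and 138 after 4 h, 97.2, 113 and 116 after 24 h, and 26.2, 28.9 and 29.7 at 7 d. All libraries of 4 h were above all of 0 h, those of 24 h overlapped with 0 h, and those of 7 d were far below all others with little spread. The gene for subunit B of translation initiation factor 3 (Ls1g83221.1), a scaffold part of the complex that brings ribosomes to mRNA, had 28.4, 26.1 and 34.7 CPM at 0 h, 33.6, 27.7 and 28.5 after 4 h, 7.28, 6.51 and 12.3 after 24 h, and 1.12, 0.848 and 1.21 at 7 d. Its r7 of 0.0671 was the lowest of a described gene.

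**Figure D3:**
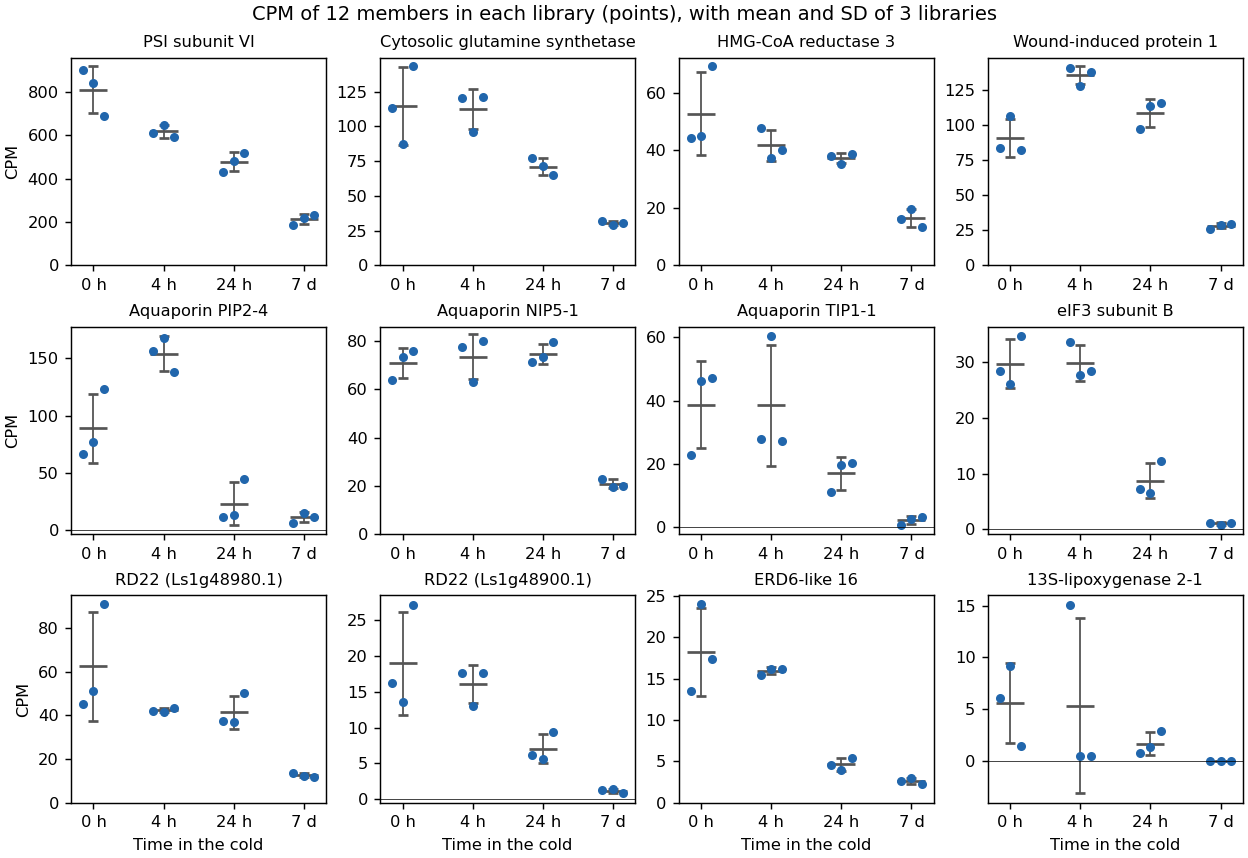
CPM of 12 of the 85 genes in each library. Each panel has the time in the cold on the x axis and CPM on the y axis, with its own scale, and points are libraries, wide bars the mean and thin bars the SD of 3 libraries. Wound-induced protein 1 and NIP5-1 are at or above their level of 0 h until 24 h, eIF3 subunit B and ERD6-like 16 are far below it at 24 h, and 13S-lipoxygenase 2-1 is at 0 in all libraries of 7 d.

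Genes for oxidases, oxygenases and terpenoid enzymes form the largest described family in the group, with 6 members of 95 described genes, of which dammarenediol II synthase is given above. In that family 14 genes were called lower and 19 higher at 7 d by limma, and under TMM scaling 18 lower and 14 higher. Linoleate 13S-lipoxygenase 2-1 (Ls1g53600.2), of the enzyme class that begins jasmonate synthesis in chloroplasts, had 6.05, 9.16 and 1.48 CPM at 0 h, 15.1, 0.426 and 0.430 after 4 h, 0.722, 1.38 and 2.89 after 24 h, and 0 reads in all 3 libraries of 7 d. Its level at 7 d was at least 38.4-fold lower than at 0 h, taking the floor of 3 reads in each library of 7 d. Its replicates had the largest coefficient of variation of the group at 0 h, 69.5%, and at 4 h, 159%, and it was the 1 gene of the 85 not called at 7 d.

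The cytochrome P450 gene Ls1g23581.2, of a family of enzymes that oxidise small molecules, had 6.77, 8.12 and 11.1 CPM at 0 h, 7.65, 5.70 and 5.64 after 4 h, 0.826, 0.998 and 2.61 after 24 h, and 0.641, 0.771 and 0.474 at 7 d. By 24 h, 76.5% of its change on the log2 scale was complete. The gene for a homolog of 1-aminocyclopropane-1-carboxylate oxidase (Ls0g19261.2), related to the last enzyme of ethylene synthesis, showed the opposite timing. It had 19.6, 20.5 and 22.7 CPM at 0 h, 20.5, 16.3 and 15.6 after 4 h, 17.9, 14.7 and 19.7 after 24 h, and 3.79, 4.43 and 2.00 at 7 d, and only 10.9% of its change on the log2 scale was complete by 24 h. Flavin-containing monooxygenase 1 (Ls3g48840.1), whose Arabidopsis relative acts in systemic immunity, had the lowest r4 of the group, 0.576, with 17.2, 18.8 and 20.2 CPM at 4 h against 33.1, 31.7 and 34.8 at 0 h. Its mean at 7 d was 7.31 ± 2.30 CPM. DMR6-LIKE OXYGENASE 2 (Ls4g110260.1), which is not counted in the list and is related to enzymes that hydroxylate salicylic acid in Arabidopsis, had 6.41, 2.35 and 0.948 CPM at 7 d against 44.0, 37.8 and 18.7 at 0 h. The 2-oxoglutarate-dependent dioxygenase AOP1.2 (Ls4g101200.1) had an r24 of 0.612 and an r7 of 0.322.

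Transporters other than aquaporins and ERD6-like 16 contribute 4 genes. Of the 65 described transporter genes, 15 were called lower and 15 higher at 7 d, or 17 and 13 under TMM scaling. PIN-LIKES 5 (Ls2g73961.1), an auxin carrier of the endoplasmic reticulum in Arabidopsis, had 25.8, 27.1 and 38.8 CPM at 0 h, 16.4, 33.5 and 22.9 after 4 h, 5.93, 11.6 and 15.5 after 24 h, and 2.89, 7.86 and 8.38 at 7 d. The libraries of 7 d overlapped with those of 24 h. Oligopeptide transporter 7 (Ls3g13640.3) had a mean of 7.58 ± 2.84 CPM at 7 d and 30.7 ± 6.18 at 0 h. NRT1/PTR FAMILY 8.1 (Ls1g16521.1), a carrier of dipeptides in Arabidopsis, had 0.812 ± 0.185 CPM at 7 d and 11.7 ± 2.07 at 0 h, and purine permease 21 (Ls1g93020.3) had 1.67 ± 0.324 and 8.42 ± 1.72.

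Receptor kinases contribute 2 genes of 172 described genes for receptors and defence, a list with 22 called lower and 11 higher at 7 d, or 36 and 11 under TMM scaling. ANXUR1 (Ls2g13421.1), which keeps pollen tubes intact in Arabidopsis, had 2.57, 3.01 and 1.69 CPM at 7 d against 13.1, 14.4 and 14.1 at 0 h. The leucine-rich repeat kinase gene Ls3g60980.1 had 1.44, 0.578 and 0.632 CPM at 7 d against 7.18, 9.85 and 9.71 at 0 h. The range of both groups was narrow beside the distance between them. Serine carboxypeptidase II-3 (Ls4g124880.1), a peptidase that removes residues from the carboxyl end, had 2.14, 2.16 and 2.27 CPM at 7 d against 11.8, 13.4 and 12.1 at 0 h. Non-symbiotic hemoglobin 2 (Ls2g103120.1), a haem protein that binds oxygen, had an r7 of 0.160. YLS3 (Ls2g101621.3), named for transcripts of yellowing leaves in Arabidopsis, had an r7 of 0.259, and Kirola (Ls3g38361.1), related to an allergen of kiwifruit, had 0.242. Cell number regulator 10 (Ls1g75060.1) was near the limit of detection at 7 d, with 4, 0 and 1 reads.

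The described lists for lignin and the secondary wall, the primary wall, cuticle and lipids, chaperones, hormones and transcription factors held no member of the group. These lists have 18, 32, 56, 22, 39 and 76 genes. Since 32 of the 1619 described genes are members, lists of these sizes would hold few members at that share, and nothing is read from their absence. At 7 d, limma called 5, 8, 17, 8, 9 and 6 of them lower and 1, 7, 7, 2, 5 and 8 higher. Under TMM scaling the counts were 8, 13, 19, 10, 10 and 10 lower and 1, 4, 6, 2, 4 and 7 higher.

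Among the genes known by ID only, the most abundant at 0 h was Ls6g83821.1, with 1095, 1059 and 1147 CPM at 0 h, 636, 655 and 632 after 4 h, 478, 518 and 567 after 24 h, and 342, 336 and 343 at 7 d. Its r4 was 0.583, below the median of the group. Ls6g81481.3 had 197, 215 and 224 CPM at 7 d against 622, 673 and 1050 at 0 h, and Ls7g44581.1 had 52.9, 71.6 and 77.4 at 7 d against 290, 302 and 381 at 0 h. The lowest r7 of the group, 0.0391, belonged to Ls6g44180.1. It had 239, 179 and 215 CPM at 0 h, 253, 279 and 269 after 4 h, 43.3, 67.4 and 119 after 24 h, and 4.97, 8.44 and 8.48 at 7 d, so that all libraries of 4 h lay above those of 0 h and the mean at 7 d was lower by 96.5%. Ls5g131560.3 followed with an r7 of 0.0510 and an r24 of 0.254, and Ls6g91941.1 with an r7 of 0.0666 and an r24 of 0.181, the lowest r24 of the group.

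At the other end, 3 genes had an r24 over 1, namely Wound-induced protein 1, NIP5-1 and Ls8g150161.1, the last with 1.03. Ls3g30521.1 with 0.852 and the ACC oxidase homolog with 0.840 came next. The 5 lowest were Ls6g91941.1, Ls6g91761.1, Ls5g131560.3, the P450 gene Ls1g23581.2 and Ls7g23880.1, with r24 of 0.181 to 0.265. These ends differ in timing, while their direction at 7 d was set by the rule. The first 5 had r7 of 0.188 to 0.324 and the last 5 had 0.0510 to 0.169. Since r24 had to be at least 1.5 times r7, a low r24 also required a low r7.

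The replicates of the group had a larger median spread than all tested genes at each time-point, in a comparison not matched for level. The median coefficient of variation was 22.2% at 0 h, 12.7% after 4 h, 20.8% after 24 h and 23.2% after 7 d, where all tested genes had 17.0%, 9.26%, 10.4% and 10.7%. At 24 h the libraries also had an order. Replicate 3 was the highest of the 3 in 70 of the 85 genes (82.4%), and in 28.4% of all tested genes. The median ratio to the 0 h mean was 0.450, 0.473 and 0.570 in replicates 1, 2 and 3 of 24 h. Replicate 3 of 0 h was likewise the highest of its time-point in 50 genes (58.8%, against 29.7% of all tested genes), with median ratios of 0.9, 0.986 and 1.1. A high mean at 24 h relative to 7 d, and at 0 h, is also what the rule asks for. Without replicate 3 of 24 h the rule finds 74 genes, all of them among the 85. Of the 85, 43 are called lower at 7 d than at 24 h without that library, against 54 with it. What set these libraries apart was not tested.

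To see the pattern in libraries that had no part in choosing the genes, the rule was applied to 8 libraries with 1 replicate number left out of every time-point, and the ratios were then taken from the 4 libraries left out. The study names no pairing of these numbers across time-points, so each left-out set was taken as 1 arbitrary library per time-point. Whether libraries with the same number share deviations was not settled. With replicate 1, 2 or 3 left out, 101, 107 and 72 genes were chosen, and 74, 80 and 60 of them are among the 85. In the left-out libraries, 7 d lay below 0 h in all of the chosen genes, and below 24 h in 96, 100 and 70. The share of all tested genes with these orders was not determined, so nothing is read from these counts. An r7 of at most 0.33 was met by 65.4%, 66.4% and 73.6% of them, where 1.19%, 0.973% and 1.26% of all tested genes met it. An r24 of at least 1.5 times r7 was met by 70.3%, 72.0% and 87.5%, where 9.89%, 8.82% and 8.79% of all tested genes met it. The size was smaller than where the genes were chosen in 2 of the 3 sets. The median r7 was 0.274, 0.263 and 0.204 in the left-out libraries and 0.234, 0.233 and 0.224 in those that chose the genes. The limits on r7 and on r24 over r7 were each met by a larger share of the chosen genes than of all tested genes. All limits together were met by 50, 51 and 47 genes, so that membership did not hold for a large share with 1 library per time-point. The share of all tested genes that met all limits together was not determined.

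**Figure D4:**
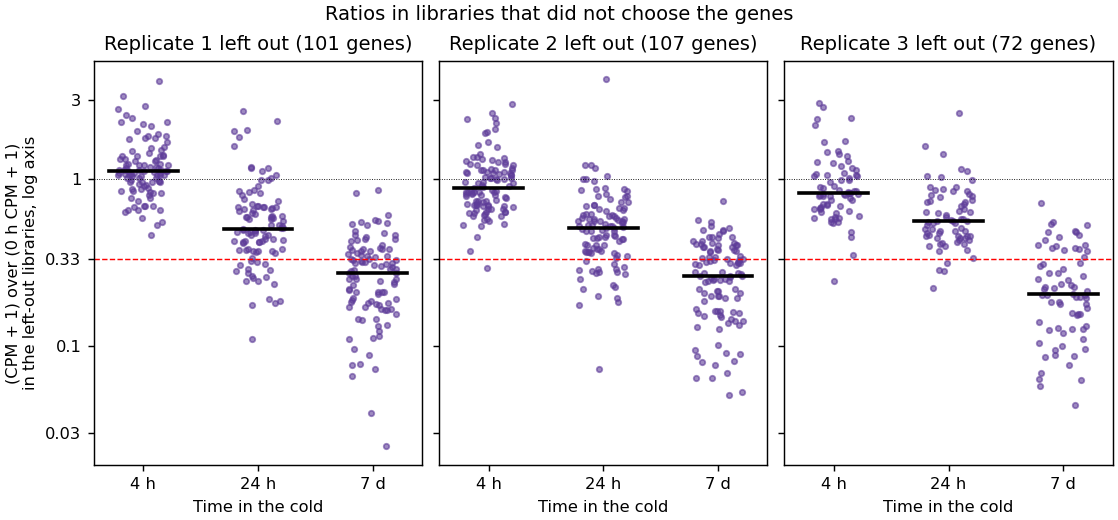
Ratios in libraries that had no part in choosing the genes. Panels stand for the replicate number left out, the x axis gives the time in the cold and the log y axis (CPM + 1) over (0 h CPM + 1) in the left-out libraries, with a point for each chosen gene (101, 107 and 72), a bar at the median, a dotted line at 1 and a dashed line at 0.33. The medians at 24 h are 0.502, 0.509 and 0.559 and those at 7 d are 0.274, 0.263 and 0.204, with points on both sides of the dashed line at 7 d.

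Read numbers were sufficient for most of these values. Over the 3 libraries of 7 d together, the 85 genes had 0 to 21615 reads with a median of 182, and 74 had at least 10 reads in each. All libraries of 7 d were at the floor of 3 reads or fewer in 2 genes, 13S-lipoxygenase 2-1 and Ls8g122120.1, and in these the distance between 24 h and 7 d is limited by depth. The second was named for this after its values were seen. Reads from these libraries are not independent molecules, so the floor covers counting error only.

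By the digit in the gene IDs, the 85 genes were spread over linkage groups 1 to 9, and 2 of them carried the digit 0, which the study does not list as a linkage group. Linkage group 9 had 2 of the 2434 genes of the table on it (0.0822%), and the other digits had 0.290% to 0.475%. In 7 places, neighbouring members had at most 10 genes of the table between them. The RD22 pair and the pair Ls4g86780.1 and Ls4g86800.1 had 0 genes between them, Ls6g91761.1 and Ls6g91941.1 had 2, PIN-LIKES 5 and HMG-CoA reductase 3 had 5, and NIP5-1 and oligopeptide transporter 7 had 6. The ID-only pairs were named for their position. Their r7 values were 0.169 and 0.0788 in the pair on linkage group 4, and 0.123 and 0.0666 in that on linkage group 6, where both members also had the lowest r24 values of the group.

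Genes that mark tissues moved as well. The summed CPM of the 13 mesophyll genes, of which photosystem I subunit VI is 1, was 16890 to 16948 at 7 d against 51373 to 53170 at 0 h, with 13 of 13 lower in mean and a median r7 of 0.389. The 7 xylem genes summed to 25.1 to 28.7 CPM at 7 d against 60.9 to 64.3 at 0 h (7 of 7 lower, median r7 0.506). The 2 phloem genes summed to 40.4 to 54.4 CPM against 73.1 to 114. The 26 genes of epidermis or cuticle summed to 227 to 230 CPM against 269 to 366, with 17 of 26 lower, a median r7 of 0.727 and 3 at the floor in all libraries of 7 d. The median r7 of the 85 genes was 0.224. These lists come from the same list of cold-regulated genes, and the part of tissue make-up in the lower levels of the 85 was not tested.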

How the data were processed

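RNA-seq of above-ground tissue was analysed for 12 libraries, 3 per time-point, grouped by the sample labels. The authors sequenced 150 bp paired-end reads, mapped them to version 8 of the lettuce genome with STAR 2.5.2, counted them with featureCounts and deposited CPM values. Each library sums to 1000000 CPM, and 100% of the deposited values are whole reads within 0.01, so that reads were recovered (18609189 to 25952306 per library). Precision follows from this depth, 3 reads being 0.116 to 0.161 CPM.

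A gene was tested if 2 samples or more reached 0.5 CPM (22306 of 23933, among them all 85 members). The test was limma 3.58.1 in R 4.3.3 on log2(CPM + 1), 1 fit over 4 time-points, with Benjamini-Hochberg adjustment over all tested genes, a threshold of 0.01 and a 2-fold change. Alternatives were a pseudocount of 0.1, TMM and RLE scaling, no filter, filterByExpr, pairwise fits, an adjusted p of 0.05, a replicate block, other limits of the rule, the median, edgeR 4.0.16 and DESeq2 1.42.0 on recovered reads, and each library left out in turn. The steps were tested on simulated data.

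The members and lists were chosen with earlier results of these data known. Named were the 10 members highest at 0 h, the 10 with the lowest r7, up to 3 per family, the 5 lowest and 5 highest r24, and the 3 genes on each side of r7 = 0.33, with at most 3 genes known by ID only in each of the first 2 sets; other genes named, among them the remaining described members, were added after their values were seen. Families were formed from words in the gene descriptions. Of the gene IDs, 0 matched the RefSeq table at hand, so sequences and gene lengths were not used here.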

Additional observations from a re-analysis of the deposited data

Results flagged for a closer look

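In 5 of the 85 genes every library of 4 h lay above every library of 0 h, and every library of 7 d below, so that the direction against 0 h differed between 4 h and 7 d. The same held for 2.41% of all tested genes and 5.88% of the 85, all of which were chosen to be low at 7 d. Among the 4107 tested genes with all libraries of 7 d below all of 0 h, it held for 538, a larger share than among the 85. The rule also set an upper limit on r4. All libraries of 4 h lay above those of 0 h in 22.6% of all tested genes. The difference in direction was not tested. The mean CPM at 4 h was 1.74 times that at 0 h for PIP2-4 (Ls2g108920.1, 154 ± 15.3 at 4 h and 88.8 ± 30.1 at 0 h, SD, n = 3 each), 1.49 times for Wound-induced protein 1 (Ls2g125861.1) and 1.26 times for Ls6g44180.1. It was 1.77 times for Ls8g88321.1, with 13.3, 16.0 and 12 CPM at 4 h and 4.92, 7.92 and 10.5 at 0 h, and 1.34 times for Ls7g27901.1, with 58.0, 53.2 and 50.2 CPM at 4 h and 36.9, 39.1 and 44.7 at 0 h. None of the 5 was called at 4 h by limma.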

How the results depend on the processing

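The 85 genes rest on the scale and limits of the rule more than on the test. With a pseudocount of 0.1 in place of 1 the rule finds 258 genes (84 of the 85 among them), with 68 called lower at 24 h and 222 at 7 d against 0 h, 54 at 24 h against 4 h and 98 at 7 d against 24 h. By RLE scaling it finds 130 genes (85 shared), 128 of them called lower at 7 d, and by TMM 121 (85 shared). An r7 limit of 0.25 gives 55 genes and one of 0.40 gives 135. For the fixed 85, the counts under no filter, filterByExpr, pairwise fits, an adjusted p of 0.05, edgeR and DESeq2 stayed within 1.5 times, at 0 at 4 h, 34 to 47 at 24 h, 84 to 85 at 7 d, 27 to 34 at 24 h against 4 h and 52 to 75 at 7 d against 24 h. Of the 22306 tested genes, edgeR called 280, 1397, 1701, 1256 and 1038 lower in these contrasts. Under the other alternatives the share of all tested genes called was not determined, and nothing is read from the counts beyond their dependence on the processing. With each library left out, the rule found 74 to 99 genes, and calls among the fixed 85 ranged over 0 to 0, 30 to 41, 84 to 85, 24 to 31 and 43 to 56. The deviations of samples with the same number had 18 correlations of −0.219 to 0.187, 6 of them over 0.1, so whether such samples deviate together was not settled. With a replicate block the calls were 0, 37, 84, 30 and 55, against 0, 38, 84, 28 and 54.

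Depth limits the 11 genes with fewer than 10 reads in a library of 7 d, and 3 libraries per time-point limit the rest.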
